A study of Mus musculus with 12 samples.

Results

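The genes described here are 34 members of the integrated stress response, chosen from a list of its regulators and of target genes of the transcription factor ATF4. They were measured in neurons in primary culture, taken from embryonic brain of the outbred mouse stock ICR (CD-1). A member was read from the probe set that carried its symbol and no other, and from the brightest where there were several. Such a probe set was found for 31 of the 34, among 22180 named genes in all, and all 31 passed the filter on low values that left 17469 genes for testing. Gadd45a and Slc6a9 shared their probe sets with a second symbol and, like Gdf15, were not analysed here.

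RNA from 6 groups of cultures was hybridised to 12 Affymetrix arrays, 2 for each group. The tricyclics amitriptyline and imipramine were each given at 5 µM, the selective serotonin reuptake inhibitor citalopram at 10 µM, duloxetine, which blocks the uptake of both serotonin and noradrenaline, at 0.1 µM, and the tetracyclic mirtazapine at 50 µM. All drugs were added at day in vitro 3 and the cultures harvested 48 h later, at day in vitro 5, and the sixth group was the control. The sources used here do not say which vehicle it received. All groups were grown in Neurobasal medium with glutamine, antibiotics and the B27 supplement, and whether the 2 replicates of a group came from separate cultures is not stated. The spread behind each p-value is therefore that between these samples, which may be technical. Doses differ between the drugs except for the tricyclics, and the 5 comparisons with control share the same 2 control arrays. In these bulk samples, fewer cells of a type and less RNA per cell cannot be told apart.

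In the integrated stress response, kinases that sense amino acid shortage, misfolded protein, heme deficiency or viral RNA phosphorylate the translation initiation factor eIF2. General translation then slows while the mRNA of ATF4 is translated more, so the response is set largely at the level of protein and is read at the level of RNA from the genes ATF4 switches on. These encode further regulators, amino acid transporters, tRNA synthetases and enzymes of serine, asparagine and cysteine supply, and in brain several of them, such as Slc7a11 and Phgdh, are known to be high in glia.

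Most members read higher than control under amitriptyline, imipramine, citalopram and mirtazapine, and not under duloxetine. With mirtazapine 4 of the 31 rose in limma at an adjusted p under 0.05 over all genes: Atf3, Nupr1, Ppp1r15a and Pck2. The background was 0.269% of genes called higher (47 of 17469) and 1.74% called in either direction. With the other drugs 0 members were called, against 0.0286% of genes called higher under imipramine and 0% under amitriptyline, citalopram and duloxetine. At an unadjusted p under 0.05, 13 members were higher under amitriptyline (1.91% of all genes), 22 under citalopram (1.52%), 14 under imipramine (1.58%), 16 under mirtazapine (8.15%) and 0 under duloxetine (4.51%), where 1 was lower (5.52%). The difference from control was positive for 30 members under amitriptyline (41.7% of all genes), 30 under citalopram (47.4%), 30 under imipramine (45.9%), 27 under mirtazapine (44.1%) and 12 under duloxetine (46.6%). The members' median log2 difference was 0.23 under amitriptyline, 0.3 under citalopram, 0.27 under imipramine, 0.24 under mirtazapine and −0.04 under duloxetine. Over all genes tested the medians lay between −0.035 and −0.005.

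**Figure D1:**
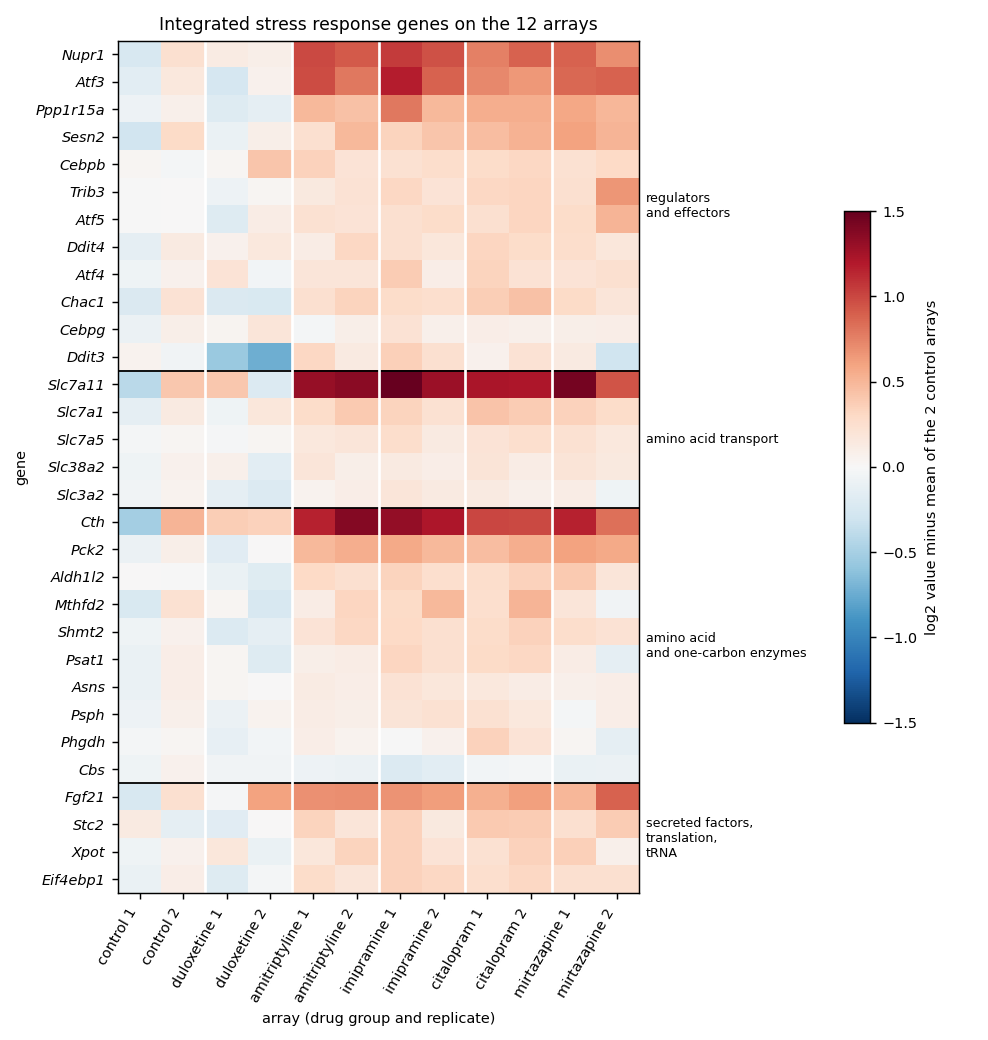
Log2 value of each of the 31 measured members on each of the 12 arrays, minus the mean of the 2 control arrays, with genes ordered within their groups by the mean difference over the drugs. The 8 arrays of amitriptyline, imipramine, citalopram and mirtazapine are red for most genes, led by Slc7a11 and Cth, while most genes on the control and duloxetine arrays stay near white, with Ddit3 blue under duloxetine and Cth, and Fgf21 on duloxetine replicate 2, red.

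The values of single arrays show the same split. Both amitriptyline arrays lay above both control arrays for 23 members (14.1% of all genes tested), both citalopram arrays for 29 (17%), both imipramine arrays for 28 (14.3%) and both mirtazapine arrays for 21 (22.6%). Both duloxetine arrays did so for 1 member, Cebpb (15.5% of all genes), and lay below both control arrays for 6 (18.3%). For 19 of the 31 members all 8 arrays of the first 4 drugs were above both controls, where 2.79% of all genes were, and for 0 they were below both (7.56% of all genes). These 19 were 7 of 12 regulators, 4 of 5 transport genes, 4 of 10 enzymes and 4 of 4 genes of secreted factors, translation and tRNA export.

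The control arrays themselves were not level. Control replicate 2 read higher than replicate 1 for 27 of the 31 members (87.1%), with a median gap of 0.15 log2 units, against 57.9% and 0.03 over all genes. With control replicate 2 as the lone control, the members' median difference was 0.175 for amitriptyline, 0.22 for citalopram, 0.21 for imipramine, 0.165 for mirtazapine and −0.12 for duloxetine. Duloxetine replicate 2 and mirtazapine replicate 2 stood apart from the other 10 arrays over all genes, at 32.6 and 36.4 on a first principal component that held 52.5% of the variance, where the others lay between −13.3 and 3.9. Without both, the medians were 0.23, 0.3, 0.27, 0.245 and −0.06 for amitriptyline, citalopram, imipramine, mirtazapine and duloxetine.

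The 4 genes that rose under mirtazapine are shown with the 250 bases before their start, together with Slc7a11, added after its matches were seen because its difference was the largest. The sequences are from RefSeq (build GRCm38.p6), 5′ to 3′ on the gene's strand, and 30 of the 34 members matched the table. Capitals mark matches to 3 motifs searched on both strands in 300 bases from 250 before to 50 after each start, with overlaps allowed. They are TGATGNAA, the core of the composite C/EBP-ATF element at which ATF4 is known to bind with C/EBP partners, TGACGTCA, the cAMP response element, and TGACNNNGC, the core of the antioxidant response element.

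Atf3 promoter (chr1:191183334-191183583, minus strand): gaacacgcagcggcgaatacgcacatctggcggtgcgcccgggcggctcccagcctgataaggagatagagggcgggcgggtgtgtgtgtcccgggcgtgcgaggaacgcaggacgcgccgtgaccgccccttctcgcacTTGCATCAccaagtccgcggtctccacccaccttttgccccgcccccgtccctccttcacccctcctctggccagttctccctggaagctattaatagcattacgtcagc
Nupr1 promoter (chr7:126625471-126625720, minus strand): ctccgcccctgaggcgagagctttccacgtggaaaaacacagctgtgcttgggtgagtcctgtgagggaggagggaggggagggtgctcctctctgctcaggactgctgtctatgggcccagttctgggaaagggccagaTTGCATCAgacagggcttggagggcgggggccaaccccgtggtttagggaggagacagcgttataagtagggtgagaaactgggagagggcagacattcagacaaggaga
Pck2 promoter (chr14:55540016-55540265, plus strand): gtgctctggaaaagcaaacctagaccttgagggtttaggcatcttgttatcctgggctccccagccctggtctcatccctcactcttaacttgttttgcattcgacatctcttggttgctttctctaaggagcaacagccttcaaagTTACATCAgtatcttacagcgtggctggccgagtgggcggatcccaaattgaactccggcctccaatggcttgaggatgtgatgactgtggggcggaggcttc
Slc7a11 promoter (chr3:50443614-50443863, minus strand): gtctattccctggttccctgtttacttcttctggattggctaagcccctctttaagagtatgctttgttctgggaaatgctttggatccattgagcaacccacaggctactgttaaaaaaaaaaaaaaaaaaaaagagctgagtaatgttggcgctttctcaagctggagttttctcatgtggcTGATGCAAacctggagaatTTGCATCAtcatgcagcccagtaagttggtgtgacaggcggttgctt
Ppp1r15a promoter (chr7:45526269-45526518, minus strand): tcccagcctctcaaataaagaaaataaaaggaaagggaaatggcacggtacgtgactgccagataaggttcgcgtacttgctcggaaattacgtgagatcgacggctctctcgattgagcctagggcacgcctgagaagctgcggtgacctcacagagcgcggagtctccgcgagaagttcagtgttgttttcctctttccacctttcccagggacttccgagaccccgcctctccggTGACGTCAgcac

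The C/EBP-ATF letters stood at −110 in Atf3, −110 in Nupr1 and −103 in Pck2 relative to the start, and in both orientations in Slc7a11, at −66 and −47. In Ppp1r15a the capitals are the cAMP response element, at −12, and a match to the antioxidant core at 4, past the start, is not shown. The C/EBP-ATF letters occurred in 8 of the 30 member genes (26.7%), the 4 above and Asns, Chac1, Fgf21 and Trib3, and in 4.51% of all 27025 genes with a promoter in the table. The cAMP response element occurred in 1 member (3.33%, against 2.03% of all genes) and the antioxidant core in 11 (36.7%, against 14% of all genes). Under mirtazapine the median difference was 0.64 for the 8 genes with the C/EBP-ATF letters (range 0.09 to 1.19) and 0.22 for 19 measured members without them (−0.1 to 0.56). Slc7a5, Aldh1l2, Cth and Eif4ebp1 (0.20, 0.29, 0.99 and 0.24 under mirtazapine) had no promoter to search and are in neither set. The medians with and without the letters were 0.61 and 0.22 under amitriptyline and 0.59 and 0.24 under imipramine. They were 0.53 and 0.28 under citalopram and 0 and −0.04 under duloxetine. No such split was made for the antioxidant core. These are descriptions of the letters in this window, with no test. The members were chosen as regulators and ATF4 targets, so their share of letters that ATF4 binds is not independent of that choice.

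The regulators and early effectors are taken first. Nupr1, a small stress-induced chromatin protein, read 7.55 and 8.04 (log2, replicates 1 and 2) in control, 8.78 and 8.72 under amitriptyline, 8.84 and 8.75 under imipramine, 8.55 and 8.68 under citalopram, 8.68 and 8.49 under mirtazapine, and 7.92 and 7.88 under duloxetine. The 8 arrays of the first 4 drugs lay above both controls, and the duloxetine arrays between the controls. Under mirtazapine it rose 1.73-fold (log2 difference 0.79 ± 0.15 SE, adjusted p = 0.0298 in limma). Its differences under imipramine (1.00, adjusted p = 0.0668), amitriptyline (0.96, adjusted p = 0.0651) and citalopram (0.82, adjusted p = 0.303) were no smaller, and did not pass. The adjusted p of a gene depends on how many genes of the same comparison have low p-values, and the unadjusted p of Nupr1 was lower under imipramine (4.59e-05) than under mirtazapine (3e-04).

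Atf3, a transcription factor induced by ATF4 that feeds back on the response, read 8.33 and 8.64 in control and 8.23 and 8.55 under duloxetine. It read 9.46 and 9.28 under amitriptyline, 9.66 and 9.37 under imipramine, 9.21 and 9.13 under citalopram, and 9.35 and 9.37 under mirtazapine. The 4 drugs were well clear of the controls, while duloxetine overlapped them. It rose 1.83-fold under mirtazapine (0.88 ± 0.15 SE, adjusted p = 0.0228). Its difference was 1.03 under imipramine (adjusted p = 0.0663), 0.88 under amitriptyline (adjusted p = 0.0906), 0.69 under citalopram (adjusted p = 0.395) and −0.10 under duloxetine (adjusted p = 0.793).

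Ppp1r15a encodes GADD34, the stress-induced subunit that directs a phosphatase to eIF2α and so ends the response. It read 7.95 and 8.1 in control, 8.51 and 8.46 under amitriptyline, 8.82 and 8.51 under imipramine, 8.57 and 8.57 under citalopram, 8.61 and 8.52 under mirtazapine, and 7.83 and 7.89 under duloxetine. The duloxetine arrays were below both controls and the other drug arrays above both. It rose 1.45-fold under mirtazapine (0.54 ± 0.11 SE, adjusted p = 0.0447), with a difference of 0.64 under imipramine (adjusted p = 0.105), 0.54 under citalopram (adjusted p = 0.379), 0.46 under amitriptyline (adjusted p = 0.2) and −0.16 under duloxetine (adjusted p = 0.565). Its call under mirtazapine ended with the replicate block (adjusted p = 0.0643).

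Atf4 itself, the central transcription factor, read 9.4 and 9.54 in control. It read 9.65 on both amitriptyline arrays, 9.85 and 9.57 under imipramine, 9.8 and 9.69 under citalopram, 9.68 and 9.71 under mirtazapine, and 9.68 and 9.43 under duloxetine. The arrays of the first 4 drugs were above both controls by small margins, and duloxetine overlapped them. Its differences were 0.18, 0.24, 0.28, 0.22 and 0.09 for amitriptyline, imipramine, citalopram, mirtazapine and duloxetine, with SE 0.12 and adjusted p of 0.277 or more. That under imipramine was 0.10 without imipramine replicate 1. The 95% interval under citalopram, 0.01 to 0.54, was the one that did not include 0.

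Ddit3, which encodes the pro-apoptotic factor CHOP, followed another pattern. It read 9.63 and 9.53 in control, 9.89 and 9.72 under amitriptyline, 9.94 and 9.82 under imipramine, 9.64 and 9.8 under citalopram, 9.72 and 9.28 under mirtazapine, and 9.02 and 8.85 under duloxetine. Both duloxetine arrays were below every other array, and mirtazapine replicate 2, which stood apart over all genes, was below both controls while replicate 1 was above them. The difference under duloxetine was −0.64 ± 0.14 SE (0.639-fold, unadjusted p = 0.00125, adjusted p = 0.492), the lowest p of any member there. Under amitriptyline, imipramine, citalopram and mirtazapine the differences were 0.22, 0.30, 0.14 and −0.08. Without duloxetine replicate 1 the difference of −0.73 was called (adjusted p = 0.0337), as was that of Cebpb (0.42, adjusted p = 0.0359), which encodes a C/EBP partner of ATF4, but 11.7% of all genes (2038) were called there. Without duloxetine replicate 2, the array that stood apart, they were −0.56 and 0.04 (adjusted p = 0.995 for both).

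**Figure D2:**
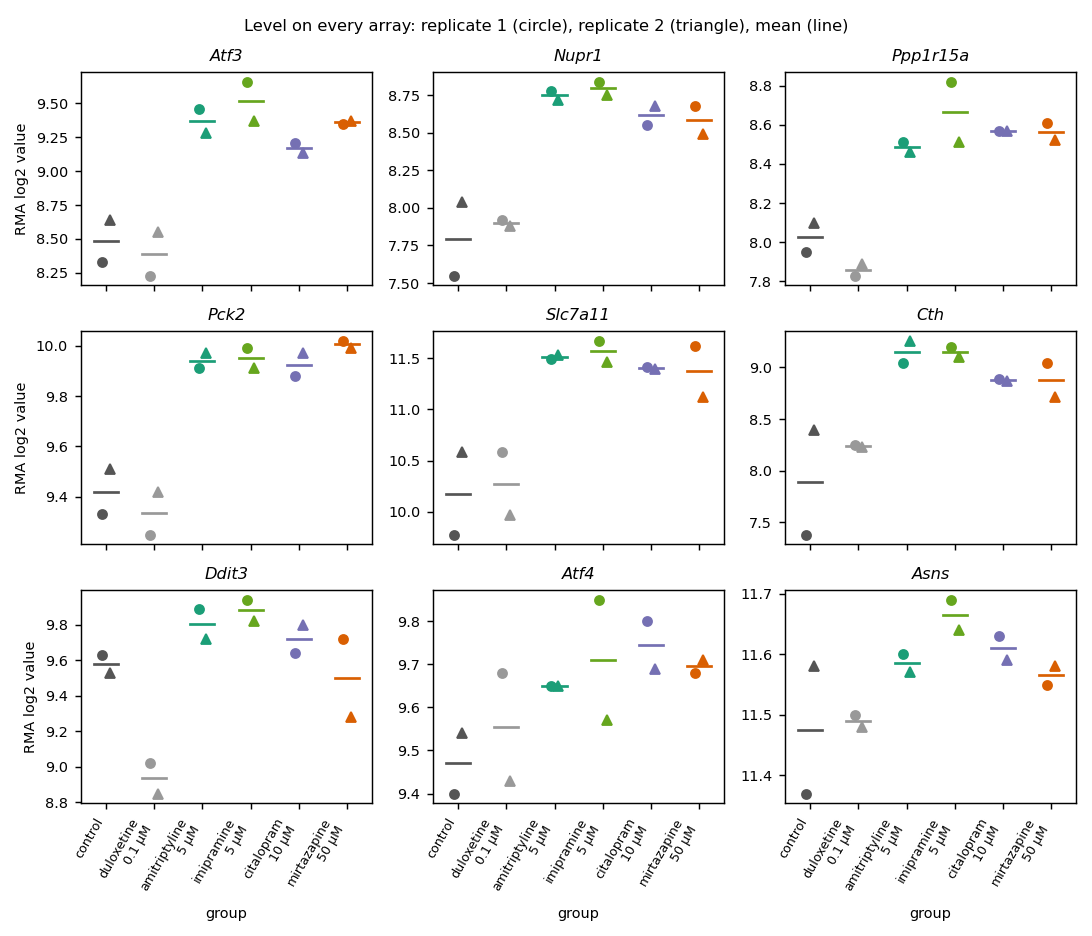
RMA log2 value of 9 members on every array by group, each panel with its own vertical range that does not start at 0; circles are replicate 1, triangles replicate 2 and lines the mean. For Atf3, Nupr1, Ppp1r15a, Pck2, Slc7a11 and Cth the 8 arrays of amitriptyline, imipramine, citalopram and mirtazapine lie above both controls, and Ddit3 is lowest under duloxetine. For Asns the amitriptyline, mirtazapine and duloxetine arrays overlap the controls, and the imipramine and citalopram arrays lie above them.

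Trib3, a pseudokinase that is induced by CHOP and inhibits AKT, read 7.75 and 7.76 in control. It read 7.9 and 7.97 under amitriptyline, 8.06 and 7.96 under imipramine, 8.07 and 8.08 under citalopram, 8 and 8.42 under mirtazapine, and 7.68 and 7.79 under duloxetine. The highest value was on mirtazapine replicate 2, and the difference under that drug was 0.46 (adjusted p = 0.101), or 0.24 without that array. Of the other regulators, Sesn2, an inhibitor of mTORC1 signalling, had differences of 0.36 to 0.56 under the 4 drugs and 0 under duloxetine. Chac1, which degrades glutathione, had 0.41 under citalopram and 0.23 to 0.29 under amitriptyline, imipramine and mirtazapine, with −0.22 under duloxetine. Atf5, a factor translated under the same control as ATF4, had 0.22 to 0.40 under the 4 drugs, and Ddit4, another mTORC1 inhibitor, 0.20 to 0.30. Cebpb had 0.24 to 0.30, with 0.22 under duloxetine, and Cebpg, also a partner of ATF4, 0.03 to 0.14. None of these passed in any drug. Several rested on the lower control: without control replicate 1, the differences under the 4 drugs were 0.07 to 0.26 for Sesn2, 0.02 to 0.19 for Chac1, 0.06 to 0.16 for Ddit4 and −0.06 to 0.06 for Cebpg. The median of the 12 measured regulators was 0.25, 0.31, 0.26 and 0.328 under amitriptyline, citalopram, imipramine and mirtazapine, and −0.013 under duloxetine.

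Amino acid transport had the largest single difference and otherwise small ones. Slc7a11, the cystine and glutamate exchanger that supplies cysteine for glutathione, read 9.78 and 10.58 in control and 10.58 and 9.97 under duloxetine. It read 11.49 and 11.53 under amitriptyline, 11.67 and 11.46 under imipramine, 11.41 and 11.39 under citalopram, and 11.62 and 11.12 under mirtazapine. The controls differed by more than the arrays of any drug, yet the higher control lay below the lowest of those 8 arrays. The differences were 1.33 (2.51-fold, 95% interval 0.73 to 1.93), 1.39 (2.61-fold, 0.79 to 1.98), 1.22 (2.33-fold, 0.62 to 1.82) and 1.19 (2.28-fold, 0.59 to 1.79) for amitriptyline, imipramine, citalopram and mirtazapine. Their SE was 0.27 and their adjusted p 0.126, 0.143, 0.399 and 0.0587, so none passed. Without both arrays that stand apart it passed under amitriptyline (adjusted p = 0.0344), imipramine (adjusted p = 0.041) and mirtazapine (1.44, adjusted p = 0.0356), and under citalopram it did not (adjusted p = 0.104). Without control replicate 1 the differences were 0.93, 0.98, 0.82 and 0.79 in the same order of drugs as above, with adjusted p of 0.306 or more. A second, dimmer probe set of Slc7a11 read 6.25 and 7.24 in control and between 7.35 and 7.96 on the amitriptyline, imipramine and citalopram arrays, but 7.89 and 6.52 under mirtazapine.

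Slc7a5 and Slc3a2 encode the light and heavy chain of the large neutral amino acid transporter LAT1, and the heavy chain also pairs with Slc7a11. Slc7a5 had differences of 0.17 to 0.22 under the 4 drugs and 0 under duloxetine. Slc3a2 read 12.55 and 12.65 in control, 12.65 and 12.7 under amitriptyline, 12.78 and 12.73 under imipramine, 12.73 and 12.68 under citalopram, 12.71 and 12.53 under mirtazapine, and 12.46 and 12.39 under duloxetine. The groups lay within a narrow band, with both duloxetine arrays below both controls (−0.17, adjusted p = 0.51). Slc7a1, a cationic amino acid transporter, had differences of 0.28 to 0.41 under the 4 drugs, and Slc38a2, a carrier of small neutral amino acids, 0.12 to 0.17. Without control replicate 1 these were 0.15 to 0.28 and 0.06 to 0.11. None of the 5 measured transport genes passed in any drug, and their medians were 0.17, 0.225, 0.2, 0.195 and 0.005 for amitriptyline, citalopram, imipramine, mirtazapine and duloxetine.

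Among the enzymes, Pck2 was the one that was called. It encodes the mitochondrial phosphoenolpyruvate carboxykinase and read 9.33 and 9.51 in control, 9.91 and 9.97 under amitriptyline, 9.99 and 9.91 under imipramine, 9.88 and 9.97 under citalopram, 10.02 and 9.99 under mirtazapine, and 9.25 and 9.42 under duloxetine. The arrays of the 4 drugs formed a tight band above both controls, and duloxetine overlapped the controls. It rose 1.5-fold under mirtazapine (0.58 ± 0.10 SE, adjusted p = 0.0228), with differences of 0.53 under imipramine (adjusted p = 0.118), 0.52 under amitriptyline (adjusted p = 0.106), 0.50 under citalopram (adjusted p = 0.347) and −0.09 under duloxetine (adjusted p = 0.717).

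Cth, the transsulfuration enzyme that releases cysteine, read 7.38 and 8.39 in control, the widest control gap of any member. It read 9.04 and 9.26 under amitriptyline, 9.2 and 9.1 under imipramine, 8.89 and 8.87 under citalopram, 9.04 and 8.71 under mirtazapine, and 8.25 and 8.23 under duloxetine. All but the duloxetine arrays were above both controls. The differences of 1.26, 1.26, 1.00 and 0.99 for amitriptyline, imipramine, citalopram and mirtazapine had an SE of 0.26 and did not pass (adjusted p = 0.126, 0.165, 0.567 and 0.0879). They depended on the controls. Without control replicate 2 they were 1.77, 1.77, 1.5 and 1.5 and were called (adjusted p = 0.0175, 0.0155, 0.0474 and 0.0161), and without control replicate 1 they were 0.76, 0.76, 0.49 and 0.48 and were not.

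The upstream partner of Cth behaved otherwise. Cbs, which condenses homocysteine with serine, read 8.32 and 8.45 in control, 8.31 and 8.3 under amitriptyline, 8.18 and 8.23 under imipramine, 8.34 and 8.36 under citalopram, 8.28 and 8.3 under mirtazapine, and 8.33 on both duloxetine arrays. It was the one member with no positive difference in any drug (−0.08, −0.18, −0.04, −0.10 and −0.06 for amitriptyline, imipramine, citalopram, mirtazapine and duloxetine), and none passed (adjusted p of 0.466 or more).

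The serine pathway runs from Phgdh through Psat1 to Psph, and its product feeds the mitochondrial one-carbon enzymes Shmt2, Mthfd2 and Aldh1l2. Phgdh, the first enzyme, read 8.5 and 8.57 in control, 8.63 and 8.59 under amitriptyline, 8.53 and 8.6 under imipramine, 8.88 and 8.74 under citalopram, 8.57 and 8.4 under mirtazapine, and 8.41 and 8.49 under duloxetine. Its difference was 0.28 under citalopram (95% interval 0.06 to 0.49, adjusted p = 0.833) and between −0.09 and 0.07 in the other drugs. Shmt2 read 11.37 and 11.49 in control, 11.64 and 11.74 under amitriptyline, 11.73 and 11.67 under imipramine, 11.7 and 11.77 under citalopram, 11.69 and 11.65 under mirtazapine, and 11.23 and 11.29 under duloxetine. It was above both controls on the 8 arrays of the 4 drugs and below both under duloxetine (−0.17, adjusted p = 0.506). Its 4 positive differences lay between 0.24 and 0.30 and did not pass.

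Asns, the asparagine synthetase and a standard ATF4 target, read 11.37 and 11.58 in control, 11.6 and 11.57 under amitriptyline, 11.69 and 11.64 under imipramine, 11.63 and 11.59 under citalopram, 11.55 and 11.58 under mirtazapine, and 11.5 and 11.48 under duloxetine. Control replicate 2 lay within the drug values, and the differences of 0.11, 0.19, 0.14, 0.09 and 0.01 did not pass. Without control replicate 1 those under the 4 drugs were −0.01 to 0.09. Aldh1l2 had differences of 0.27 to 0.30 under the 4 drugs and −0.14 under duloxetine. Psat1, Psph and Mthfd2 had 0.10, 0.10 and 0.22 under amitriptyline, 0.30, 0.19 and 0.38 under citalopram, and 0.28, 0.21 and 0.38 under imipramine. Under mirtazapine the same genes had −0.01, 0.03 and 0.06. On replicates 1 and 2 of that drug Psat1 read 10.79 and 10.54, Mthfd2 10.27 and 10.03, and Psph 8.72 and 8.85. Replicate 2, the array that stood apart, was thus the lower for Psat1 and Mthfd2 and the higher for Psph. Without control replicate 1 the differences of Psat1 and Mthfd2 under amitriptyline were 0 and that of Psph 0.03, and the difference of Mthfd2 was 0.16 under citalopram and imipramine and −0.16 under mirtazapine. The median of the 10 enzymes was 0.165, 0.302, 0.277 and 0.078 under amitriptyline, citalopram, imipramine and mirtazapine, and −0.085 under duloxetine.

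The secreted factors and the genes of translation and tRNA export complete the set. Fgf21, a hormone of the fasting response, had differences of 0.70, 0.65, 0.57 and 0.69 under amitriptyline, imipramine, citalopram and mirtazapine and 0.29 under duloxetine, with an SE of 0.21. Its duloxetine arrays disagreed, at 6.85 and 7.47 against 6.63 and 7.11 in control, and the higher was the array that stood apart. Without that array the difference under duloxetine was −0.02, and without control replicate 1 those under the 4 drugs were 0.33 to 0.46. Stc2, a secreted glycoprotein, had 0.24 to 0.38 under the 4 drugs, Xpot, which exports tRNA from the nucleus, 0.22 to 0.28, and Eif4ebp1, a repressor of cap-dependent translation, 0.23 to 0.33. Without 1 control, the range was 0.12 to 0.22 for Eif4ebp1 (replicate 1 left out) and 0.11 to 0.25 for Stc2 (replicate 2 left out). None of the 4 passed in any drug.

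**Figure D3:**
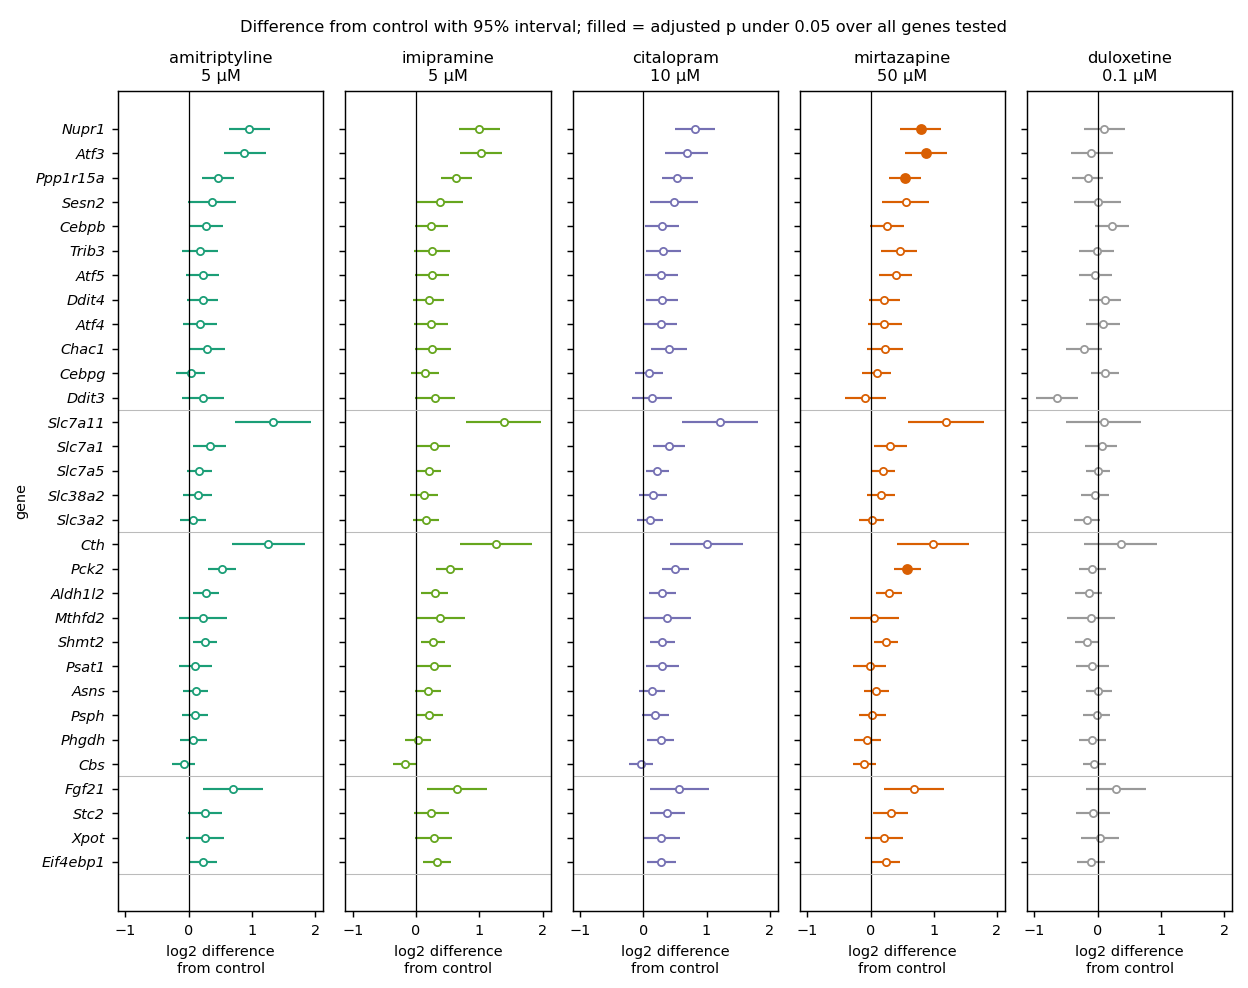
Log2 difference from control for the 31 members with 95% intervals from limma, one panel per drug and dose, genes grouped as in the heat map; filled points have an adjusted p under 0.05 over all 17469 genes. The only filled points are Nupr1, Atf3, Ppp1r15a and Pck2 under mirtazapine, and the intervals under duloxetine include 0 for all genes but Ddit3.

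The calls depended on single arrays. The 4 calls under mirtazapine became 0 without control replicate 1 (0% of all genes called in either direction), without either citalopram array (0.378%) or without mirtazapine replicate 2 (0.0458%), and 2 without either amitriptyline array (0.796%). They became 7 without either duloxetine array (7.59%) and 6 without control replicate 2 (0.664%), against 1.74% of all genes with every array. Of 23 alternatives in processing, arrays left out included, Atf3 and Pck2 were called in 17, Nupr1 in 13 and Ppp1r15a in 10. Their differences stayed positive under each of the 23, from 0.72 to 1.03 for Atf3, 0.54 to 1.03 for Nupr1, 0.47 to 0.65 for Ppp1r15a and 0.50 to 0.69 for Pck2. In the other direction, amitriptyline had 2 calls without control replicate 2 (0.0973% of all genes) and without either duloxetine array (0.275%). Imipramine had 2 in the same settings (0.12% and 0.166%), and citalopram 2 without control replicate 2 (0.0572%).

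The 2 tricyclics were the only drugs of matched dose and time, and their contrast uses no control array. Of the 31 members 0 differed between amitriptyline and imipramine in limma, with 0 at an unadjusted p under 0.05 (0.647% of all genes higher and 0.561% lower under amitriptyline) and 0% of all genes called. The largest differences were those of Ppp1r15a (−0.18, 95% interval −0.43 to 0.07) and Psat1 (−0.18, −0.45 to 0.08). The widest intervals were those of Slc7a11 (−0.65 to 0.54) and Cth (−0.57 to 0.57), so differences within these bounds cannot be told from 0 here. The compounds differ in the central ring atom that carries the side chain, a carbon in amitriptyline and a nitrogen in imipramine. The adjusted p was 1 for every member.

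**Figure D4:**
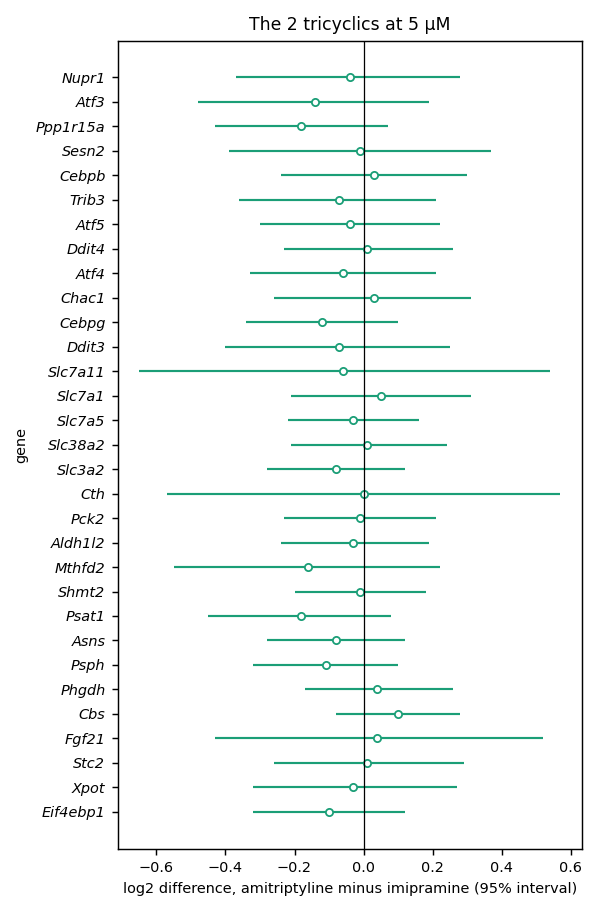
Log2 difference between amitriptyline and imipramine, both at 5 µM, for the 31 members with 95% intervals from limma. All intervals include 0 and reach at most from −0.65 to 0.57.

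Among the 5 drugs together, an F test that uses no control array called 0 of the 31 members (0.0114% of all genes), with 17 at an unadjusted p under 0.05 (9.76% of all genes). The lowest p-values belonged to Atf3 and Ppp1r15a (adjusted p = 0.116 for both), Pck2 (adjusted p = 0.121) and Ddit3 (adjusted p = 0.161). For the mean of the 5 drugs against control, 0 members were called (0.0286% of all genes called higher) and 18 had an unadjusted p under 0.05 in the positive direction (2.84% of all genes). Nupr1 came first (0.73 ± 0.11 SE, adjusted p = 0.0571), followed by Atf3 (0.68, adjusted p = 0.0637). Without both arrays that stand apart this comparison called 4 members, beside 1.17% of all genes.

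Other genes of the pathway were read from 6 lists, which hold 69 measured genes. Under mirtazapine 3 of them rose in limma, where 0.269% of all genes were called higher and 1.74% in either direction. They were Slc1a5, a neutral amino acid transporter (1.15 ± 0.23 SE, adjusted p = 0.0423), Ero1a (0.90, adjusted p = 0.0277) and Vegfa (0.55, adjusted p = 0.0194). Ero1a encodes an oxidase of the endoplasmic reticulum induced by CHOP, and Vegfa the vascular growth factor. No gene of the lists was called under the other drugs, where Slc1a5 had differences of 1.31 under amitriptyline (adjusted p = 0.0933), 1.29 under imipramine (adjusted p = 0.105) and 1.07 under citalopram (adjusted p = 0.395). Ero1a had 0.90 under amitriptyline (adjusted p = 0.0942), 0.98 under imipramine (adjusted p = 0.0907) and 0.77 under citalopram (adjusted p = 0.395). The 3 calls became 0 without control replicate 1 or mirtazapine replicate 2 and 1 without any single amitriptyline, citalopram or imipramine array. They became 9 without either duloxetine array and 7 without mirtazapine replicate 1, where 7.59% and 8.3% of all genes were called.

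The genes of the eIF2 machinery did not move with the members. They comprise the eIF2 kinases, the eIF2B subunits, Eif2s2, Eif2a and the phosphatase subunit gene Ppp1r15b. Eif2s2 was the only gene of an eIF2 subunit measured in this list. Of 12 measured, 0 were called, and their median was −0.065, −0.062, −0.018, −0.238 and −0.18 under amitriptyline, citalopram, imipramine, mirtazapine and duloxetine. Their lowest p under imipramine and mirtazapine was that of Eif2ak2, the kinase PKR (−0.32 and −0.38, adjusted p = 0.573 and 0.0853). The list median lay at −0.373 on mirtazapine replicate 2 and −0.292 on duloxetine replicate 2, the arrays that stand apart, and at −0.098 and −0.063 on replicate 1 of these drugs. The 16 cytosolic tRNA synthetases, many of them ATF4 targets, had 0 calls and medians of 0.078, 0.143, 0.125, 0.01 and −0.143. The synthetase of lowest p was Mars1 under citalopram (0.22, adjusted p = 0.862) and Qars under mirtazapine (−0.52, adjusted p = 0.0565). The 9 other ATF4 targets of amino acid supply had medians of 0.115, 0.195, 0.145, 0.115 and 0.04, in the same order of drugs. The 12 other effectors, which hold Ero1a and Vegfa, had medians of 0.143, 0.205, 0.19, 0.155 and −0.038. Among them Nfe2l2, the antioxidant factor NRF2, had 0.46, 0.43, 0.52 and 0.17 under the first 4 drugs and −0.11 under duloxetine, and did not pass. Its mirtazapine arrays disagreed, at 8.97 and 8.48 against 8.49 and 8.62 in control, and the lower was the array that stood apart.

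Outside ATF4, the 13 targets of IRE1 and ATF6, the other arms of the unfolded protein response, had 0 calls, with medians of 0.18, 0.165, 0.225, 0.055 and −0.05 under amitriptyline, citalopram, imipramine, mirtazapine and duloxetine. Their lowest p was that of the chaperone gene Hyou1 under citalopram, imipramine and mirtazapine (0.29, 0.31 and 0.38, adjusted p = 0.823, 0.596 and 0.0875). Both arrays were above both controls for 7 targets under amitriptyline (14.1% of all genes), 8 under citalopram (17%) and 11 under imipramine (14.3%). The count was 2 under mirtazapine (22.6%) and 0 under duloxetine (15.5%). Hspa5, which encodes the chaperone BiP, had 0.18, 0.23, 0.26 and 0.22 under amitriptyline, citalopram, imipramine and mirtazapine. The 7 enzymes of the one-carbon and transsulfuration pathways not held to be ATF4 targets had medians of −0.125, −0.025, −0.04, −0.185 and −0.04, and the glycine cleavage gene Gldc was the lowest by p under mirtazapine (−0.47, adjusted p = 0.0786).

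The labelled cell type was checked against markers. All 12 neuron markers were above the filter, among them Tubb3 (12.33 to 12.55 over the 12 arrays), Map2 and Dcx. Their median difference stayed between −0.07 and 0.032 in every drug, but single markers moved more. Under mirtazapine 9 were negative and 3 positive, the lowest at −0.64, and 0 were called. At an unadjusted p under 0.05 in limma 3 were lower there, as were 2492 of 17469 genes. Nefl read 9.78 and 9.44 under mirtazapine, against 10.15 and 10.34 in control. Fabp7 of the astrocyte list (12.9 to 13.22) and Vim of the radial glia list (11.96 to 12.21) were also bright. Most markers of astrocytes and dividing cells moved in the opposite direction to the members under amitriptyline, citalopram, imipramine and mirtazapine. Of 11 astrocyte markers, 11, 9, 11, 10 and 4 were negative under amitriptyline, citalopram, imipramine, mirtazapine and duloxetine (medians −0.295, −0.15, −0.21, −0.31 and 0.02), and Aqp4 and Gfap fell under mirtazapine (−1.17 and −0.60, adjusted p = 0.01 and 0.0214). Their mean level was 9.49 and 9.61 in control and 9.54 to 9.61 under duloxetine, against 9.12 to 9.39 on the other 8 arrays. All 11 markers of dividing cells were negative in each drug (medians −0.635, −0.61, −0.525, −0.765 and −0.18). Under mirtazapine 9 of them fell, where 257 of 17469 genes were called lower. Over all 17469 genes, 9909, 8876, 9097, 9622 and 9142 were negative in the same order of drugs. The mean level of the dividing cell markers was 8.4 to 8.53 in control, 8.1 to 8.44 under duloxetine and 7.67 to 8.01 on the other arrays. The part of these shifts in the members' values was not tested.

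The remaining marker lists varied less evenly. Medians of the 10 radial glia markers were −0.192, −0.122, −0.06, −0.275 and −0.105 under amitriptyline, citalopram, imipramine, mirtazapine and duloxetine. Under mirtazapine 8 were negative and 2 positive, and Hes5 fell (−1.15, adjusted p = 0.00681). Nes and Tnc were above both controls on all amitriptyline, citalopram and imipramine arrays. Nes read 8.86 to 9.13 there, against 8.52 and 8.65 in control, and Tnc 11.2 to 11.28, against 10.86 and 10.98. Oligodendrocyte lineage markers were negative for 7, 8, 8 and 7 of 9 under amitriptyline, citalopram, imipramine and mirtazapine. They were positive for 8 of 9 under duloxetine (median 0.325), and Olig1 fell under mirtazapine (−0.83, adjusted p = 0.0223). Their mean level was 7.79 and 8.26 in control, 7.57 to 7.79 on the 8 arrays of the 4 drugs and 8.27 to 8.38 under duloxetine. Microglia markers (mean level 6.61 to 6.89) and endothelial markers (6.11 to 6.5) were not far above the filter of 5.72, and Ptprc, Tek and Emcn had means below it. In the order amitriptyline, citalopram, imipramine, mirtazapine and duloxetine, microglia medians were −0.018, −0.062, −0.042, 0.175 and 0.073. Endothelial medians were 0.05, 0.07, 0.098, 0.132 and 0.202. Fibroblast and pericyte markers lay at 6.96 to 7.38, with the mean of Lum below the filter. Under mirtazapine 5 of 8 were positive (44.1% of all genes) and the list median was 0.168, while Dcn fell (−1.61, adjusted p = 0.0115). The list median was −0.092, 0.008, −0.13 and 0.217 under amitriptyline, citalopram, imipramine and duloxetine. The part of these lists in the members' values was not tested.

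**Figure D5:**
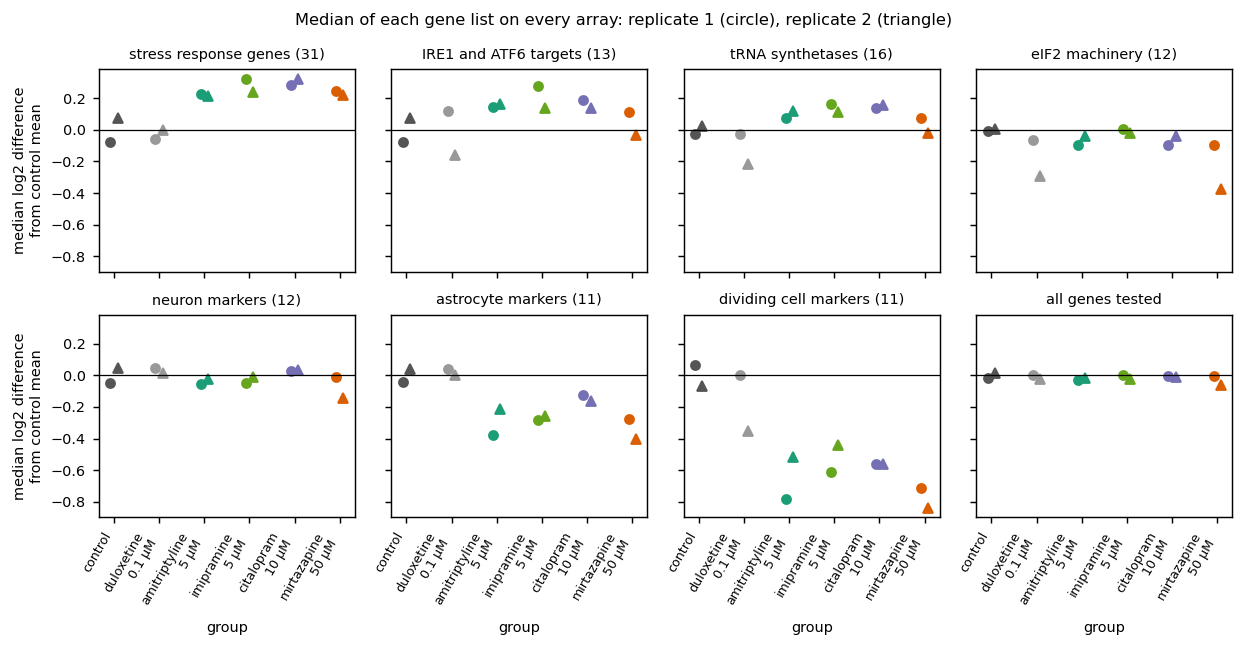
Median log2 difference from the control mean of each gene list on every array, with circles for replicate 1, triangles for replicate 2 and the number of genes in brackets. The stress response genes lie at 0.215 to 0.325 on the 8 arrays of amitriptyline, imipramine, citalopram and mirtazapine, neuron markers and all genes tested stay near 0, and markers of astrocytes and dividing cells lie below 0 on those arrays.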

How the data were processed

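The authors deposited log2 values of 41345 probe sets, made with Affymetrix Expression Console and RMA per the submitters' processing notes; their versions and the genome build are not given here. Without counts, the number of arrays limits the precision. In the platform annotation 23521 probe sets had 1 symbol, 1814 several and 16010 none, and the brightest stood for a gene. Genes with a mean of at least 5.72, the 30th percentile over the probe sets, were tested. All 12 arrays entered 1 model in limma 3.58.1 (R 4.3.3; 6 residual and 3.86 prior degrees of freedom), with 2-sided tests and Benjamini-Hochberg adjustment over 17469 genes. Folds are 2 to the power of the log2 difference. The fit was tested on simulated data. The members and lists were chosen with earlier results of these data known. Any member could be named, and values on every array are given for called members, the 3 of lowest p per drug and 8 set ones. Cth and Fgf21 were added after their values were seen. Of the other lists, called genes and examples of low p are named, with Hspa5 and Nfe2l2 added after their values were seen. Groups share replicate numbers, but same-numbered arrays deviated together (r over 0.1) in 4 of 15 group pairs. The numbers were therefore not taken as pairs. The correlations ran from −0.44 to 0.71, the highest for duloxetine and mirtazapine, whose replicate 2 arrays stood apart. What these 2 groups share was not tested. Alternatives changed the filter, the probe set rule, eBayes, the weighting of arrays, the normalization, the block on replicate number, the smallest difference counted (0.5) and the arrays included.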

Additional observations from a re-analysis of the deposited data

How the results depend on the processing

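Against 0 members called in the reported fit, amitriptyline had 1 with the filter at the 50th percentile (0.126% of all genes called), 2 with trend and robust eBayes (0.16%), 6 with array weights (1.27%), 1 after a second quantile normalization (0.103%) and 4 without both arrays that stand apart (1.31%). Imipramine had 2 (0.0973%), 6 (0.733%), 1 (0.103%) and 4 (0.481%) under the last 4 of these settings, and citalopram 5 with array weights (0.435%). The mean of the drugs had 3 (0.461%), 3 (0.286%), 5 (1.04%), 1 (0.143%) and 4 (1.17%) under the 5 settings, and the F test between the drugs had 3 with trend and robust eBayes (0.183%). The 4 calls under mirtazapine became 0 with array weights (0.63%) and 0 with only the 4 arrays compared (0.0801%). With 1 array left out at a time, the calls ranged from 0 to 2 for amitriptyline, citalopram, duloxetine and imipramine, from 0 to 7 for mirtazapine, from 0 to 5 for the mean of the drugs and from 0 to 0 for the F test. The calls for the mean of the drugs were 2 without control replicate 2 (0.263%), 5 without duloxetine replicate 1 (1.39%) and 3 without duloxetine replicate 2 (0.412%). A group left with 1 array was assumed to vary like the others, and the causes were not tested.

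The members' median difference ranged from 0.175 to 0.265 for amitriptyline, 0.22 to 0.35 for citalopram, 0.21 to 0.33 for imipramine and 0.165 to 0.295 for mirtazapine with 1 array left out. For duloxetine it ranged from −0.12 to 0.035 and was 0.04 after the second quantile normalization, which gave 0.322 for mirtazapine. No called difference changed sign under the alternatives run for single members. The replicate block left 3 members called under mirtazapine (Ppp1r15a was lost) and 0 elsewhere. The replicate numbers are not shown to pair the samples. With 2 arrays a group, the median half-width of a member's 95% interval was 0.26 log2 units.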
